A study of Mus musculus with 6 samples.

Results

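The 44 genes described here encode integrins, laminins and other structural proteins of the basement membrane, with the proteins that tie epithelial cells to it. They were taken by symbol from the annotation of the array, as the numbered integrin alpha chains, integrin beta chains 1 to 8, laminin chains and the 6 collagen IV chains, plus Col17a1, Nid1, Nid2, Hspg2, Agrn, Cd151, Plec and Dst. They are 44 of the 19933 genes that had a probe set naming a single gene, and each was read from 1 probe set. RNA levels were read with Affymetrix Gene 1.0 ST arrays from preparations of whole epithelium from the mouse jejunum, the middle stretch of the small intestine. The 3 arrays labelled control came from R26-M2rtTA mice, which carry a doxycycline-dependent transactivator at the broadly active Rosa26 locus. The 3 arrays labelled transgenic came from TRE-MSI2::R26-M2rtTA mice, which also carry a transactivator-driven transgene for MSI2, an RNA-binding protein of the Musashi family. Mice of both groups thus carried the transactivator, and both received doxycycline in their drinking water for 24 hours. The labels call the arrays of a group biological replicates and give no age.

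Integrins are receptors of paired alpha and beta chains that bind matrix proteins outside the cell and connect them to actin or keratin filaments inside it. The basement membrane under the intestinal epithelium is built from laminin trimers and a collagen IV network, linked by nidogens and by the heparan sulfate proteoglycans perlecan and agrin. Epithelial cells hold on to it through beta1 integrins and through hemidesmosomes, where the integrin of Itga6 and Itgb4 meets keratin filaments through plectin.

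Values are log2 expression levels as deposited. Msi2 did not separate the arrays by label: its levels were 11.30, 9.53 and 9.32 in control replicates 1, 2 and 3, and 11.23, 10.58 and 11.44 in the arrays labelled transgenic. The paralog Msi1 did, at 7.20, 7.97 and 7.62 against 13.44, 12.82 and 13.53. Over all probe sets control replicate 1 correlated with the other controls at r = 0.981 and 0.982, and those correlated with each other at 0.996. With transgenic replicates 1, 2 and 3 control replicate 1 correlated at 0.966, 0.977 and 0.967. Control replicates 2 and 3 correlated with the transgenic arrays at 0.947 to 0.973. All directions below are therefore between arrays as labelled, and an array left out is named by its group and replicate number. Epcam, an epithelial adhesion molecule, was at 12.71, 12.81 and 12.79 against 12.60, 12.87 and 12.76, high on every array. Of 10 epithelial markers 2 rose and 3 fell, namely Krt18 and Cdh1 against Vil1, Cdx1 and Cdx2 (50%, beside 18.6% of all genes). The number of these markers that passed was 5, 1 and 1 without control 1, 2 or 3, and 2, 3 and 1 without transgenic 1, 2 or 3. The shares of all genes in those fits are given below. The sum of their linear levels, on the log2 scale as for each marker list below, was 15.66 to 15.78 in controls and 15.73 to 15.87 in arrays labelled transgenic. The number of arrays limits the precision of every value, and in bulk samples fewer cells of a type and less RNA per cell cannot be told apart.

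Of the 44 genes, 12 passed at an adjusted p under 0.05 in limma (27.3%), where 18.6% of all genes did. The 5 that rose were Itgb6, Lamc1, Itga2, Lama5 and Itgb1, while 8.97% of all genes rose. The 7 that fell were Agrn, Itgb4, Itga1, Hspg2, Itgb2, Nid2 and Itgb7, while 9.65% of all genes fell. The groups did not overlap for 22 of the 44 genes (50%), and for 37.0% of all genes. The median log2 fold change, transgenic minus control, was 0.046 over the 44 genes and 0.021 over all genes, and its median size without sign was 0.23 and 0.18. A fit blocked on the replicate number passed 14 of the 44, beside 25.8% of all genes. A fit blocked on animal sex passed 9, beside 10.8%. Without control replicate 1, 15 passed, beside 27.8% of all genes. Without control replicate 2 or 3, 6 and 5 of the 44 passed, beside 4.90% and 4.78% of all genes. Without transgenic replicate 1, 2 or 3, 7, 12 and 6 passed, beside 6.87%, 20.5% and 5.39%. The counts of the 44 genes thus rose and fell across these fits with the share of all genes.

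**Figure D1:**
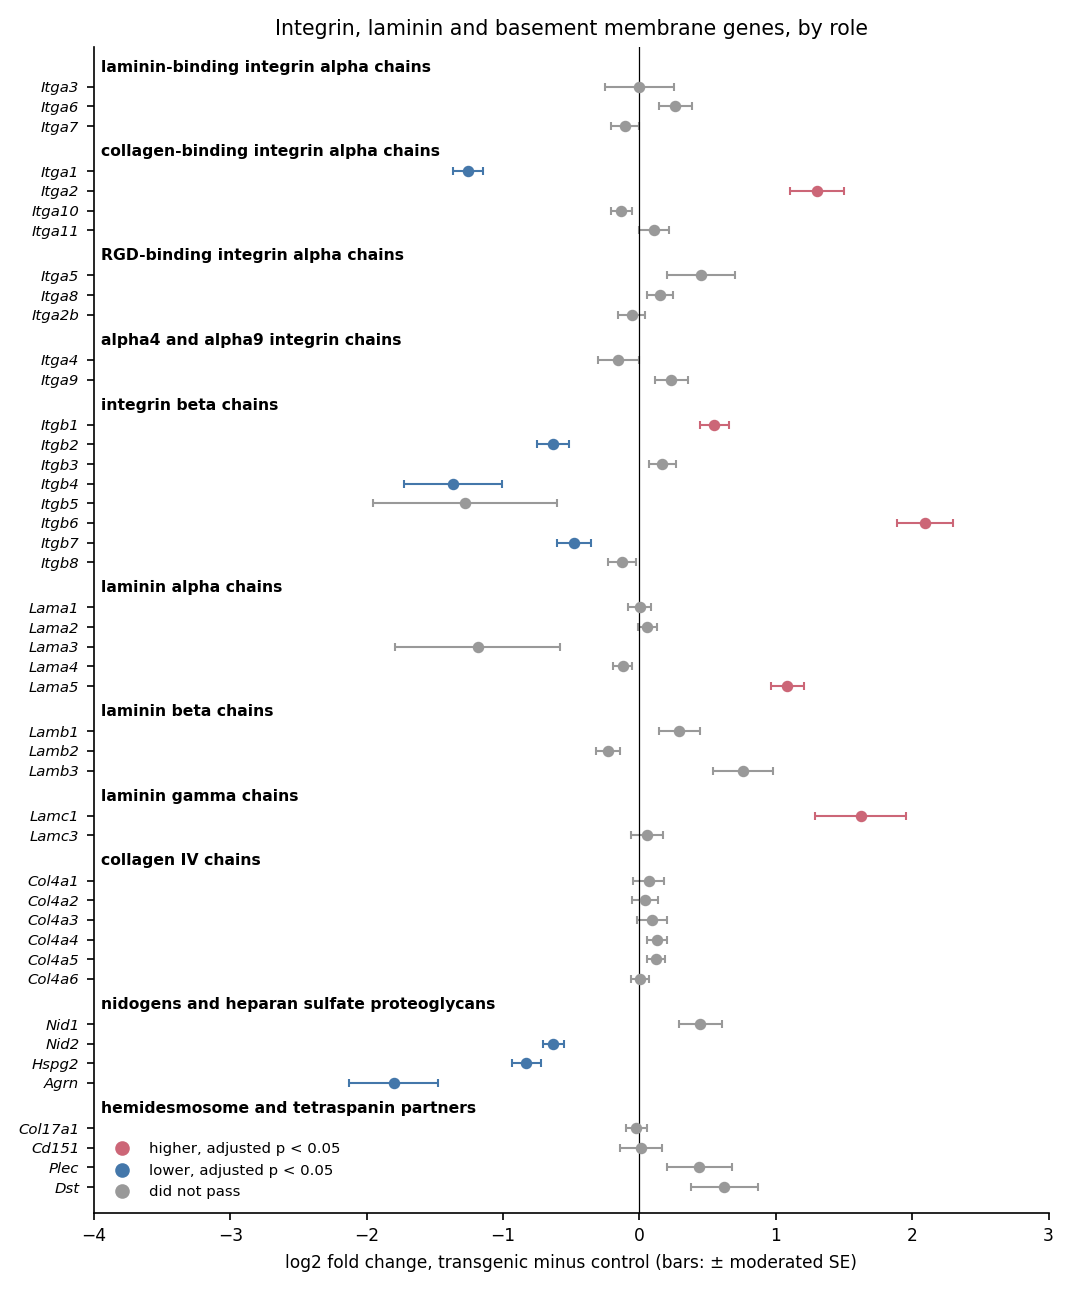
Log2 fold change of each of the 44 genes (x axis, transgenic minus control) with its moderated standard error (bars), grouped by role. Red points rose, blue points fell and grey points did not pass at an adjusted p of 0.05; Itgb6 lies farthest right at 2.09, Agrn farthest left at -1.80, and the 6 collagen IV chains lie between 0.0024 and 0.13.

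Sequence upstream of 5 genes that passed is printed to show what lies before the starts of genes that moved in opposite directions. The RefSeq promoter table of assembly GRCm38.p6 held 37 starts for 31 of the 44 genes. The 250 bases before each start were searched on both strands for the GC box GGGCGG, with overlapping matches counted. It was in 17 of the 37 windows and in 32.7% of the 32851 windows of all genes. The AP-1 letters TGANTCA were in 0 of the 37 and in 6.75% of all windows, the TEAD letters GGAATG in 4 and in 12.6%, and the STAT letters TTCNNNGAA in 2 and in 7.02%. The window of Itgb6, the gene that rose most, is chr2:60722604-60722853 on the minus strand, the more upstream of its 2 starts, and that of Itga2, which also rose, is chr13:114932101-114932350 on the minus strand; neither holds a GC box. The window of Lama5, a laminin gene that rose, is chr2:180225860-180226109 on the minus strand and holds 4. The window of Agrn, the gene that fell most, is chr4:156197489-156197738 on the minus strand, the more upstream of its 2 starts, and holds 12. The window of the other Agrn start, not printed, holds 2. The window of Hspg2, which also fell, is chr4:137468553-137468802 on the plus strand and holds 5. Each is written 5′ to 3′ on the gene's strand, with GC boxes of either strand in capitals.
Itgb6: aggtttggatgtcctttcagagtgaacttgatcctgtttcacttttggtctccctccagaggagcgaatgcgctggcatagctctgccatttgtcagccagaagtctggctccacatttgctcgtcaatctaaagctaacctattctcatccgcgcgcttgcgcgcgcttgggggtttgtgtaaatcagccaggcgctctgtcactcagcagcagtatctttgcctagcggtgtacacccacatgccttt
Itga2: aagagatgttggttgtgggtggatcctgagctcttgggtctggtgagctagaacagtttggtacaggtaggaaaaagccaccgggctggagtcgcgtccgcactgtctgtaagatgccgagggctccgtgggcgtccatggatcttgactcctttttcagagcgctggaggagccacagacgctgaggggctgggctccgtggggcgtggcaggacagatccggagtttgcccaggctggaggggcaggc
Lama5: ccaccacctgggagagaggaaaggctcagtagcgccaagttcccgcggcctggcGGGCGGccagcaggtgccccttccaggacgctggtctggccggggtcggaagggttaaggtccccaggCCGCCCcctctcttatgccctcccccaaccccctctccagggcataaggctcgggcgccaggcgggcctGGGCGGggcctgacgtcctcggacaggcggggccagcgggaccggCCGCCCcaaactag
Agrn: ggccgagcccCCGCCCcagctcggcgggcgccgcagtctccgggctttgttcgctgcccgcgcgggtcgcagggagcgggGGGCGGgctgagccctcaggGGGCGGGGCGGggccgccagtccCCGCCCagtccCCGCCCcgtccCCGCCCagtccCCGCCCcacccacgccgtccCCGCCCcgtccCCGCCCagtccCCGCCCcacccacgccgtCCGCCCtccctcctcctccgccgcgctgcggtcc
Hspg2: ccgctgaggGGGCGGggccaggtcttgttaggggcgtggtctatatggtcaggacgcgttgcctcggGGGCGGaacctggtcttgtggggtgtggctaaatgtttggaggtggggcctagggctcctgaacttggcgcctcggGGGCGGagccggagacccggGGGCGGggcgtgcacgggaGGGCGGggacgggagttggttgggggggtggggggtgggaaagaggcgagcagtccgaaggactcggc
Windows with and without a GC box occurred in both directions, since Itgb1, which rose, has 1 in its window, and Itga1 and Itgb7, which fell, have 0.

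Among the receptors, the chains of an epithelial fibronectin receptor and of a collagen receptor were higher. Itgb6 pairs with the alphav chain into an epithelial integrin that binds fibronectin and activates latent TGF-beta. Its levels were 8.12, 8.50 and 8.89 in controls and 10.43, 10.78 and 10.58 in arrays labelled transgenic. All 3 transgenic values lay above all control values, and Itgb6 was 4.26-fold higher (log2 fold change 2.09, SE 0.21, adjusted p = 0.00393 in limma). Itgav, the partner chain, lies outside the 44 genes and was at 9.33, 9.38 and 9.44 against 10.56, 10.70 and 10.74 (log2 fold change 1.29, SE 0.081, adjusted p = 0.00124). It was higher on every transgenic array, and both calls held with each array left out in turn. Itga2, the alpha chain of a collagen receptor of epithelia, was at 10.55, 9.88 and 10.06 against 11.66, 11.48 and 11.25. Its groups did not overlap, and it was 2.46-fold higher (log2 fold change 1.30, SE 0.20, adjusted p = 0.0112), a call lost without control 3 (adjusted p = 0.0563). Itgb1, its partner and the beta chain shared by many integrins, was at 10.20, 10.10 and 10.02 against 10.72, 10.49 and 10.77. It was higher on every transgenic array, by 1.46-fold (log2 fold change 0.55, SE 0.10, adjusted p = 0.0196), and the call was lost without control 2, control 3, transgenic 1 or transgenic 3 (adjusted p = 0.0774, 0.08, 0.072 and 0.0767, respectively).

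**Figure D2:**
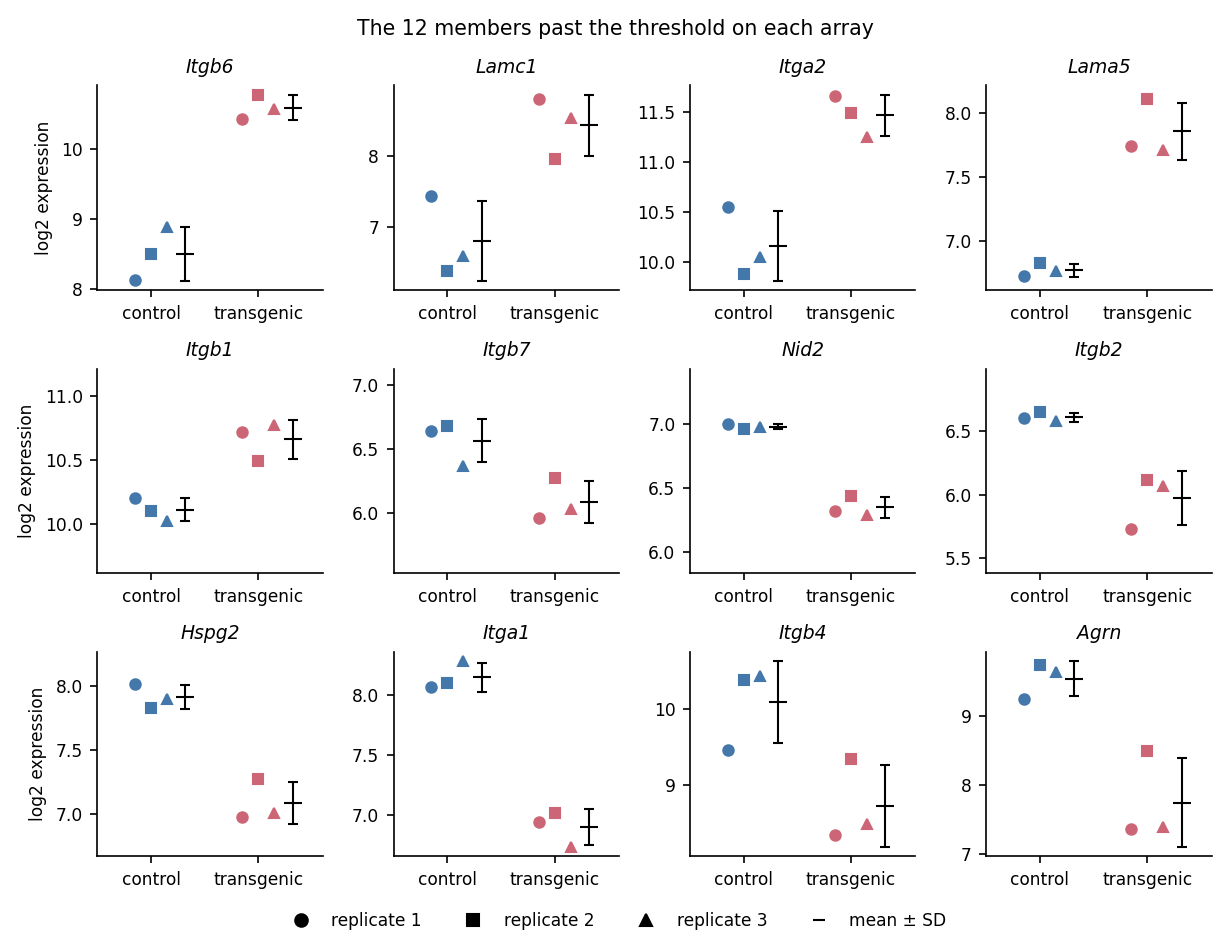
Log2 expression of the 12 genes that passed (y axis, a scale of its own in each panel) on each control (blue) and transgenic (red) array, with a symbol for the replicate number and a black mark and bars for the group mean ± SD (n = 3). The groups do not overlap in any panel, and in Lamc1, Itga2, Itgb1, Itgb4, Itga1 and Agrn control replicate 1 is the control nearest the transgenic arrays.

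The hemidesmosome chains differed from each other. Itgb4, whose long tail binds plectin, was at 9.46, 10.38 and 10.43 in controls and 8.35, 9.34 and 8.49 in arrays labelled transgenic. Control replicate 1 and transgenic replicate 2 lay close together, and Itgb4 was 2.58-fold lower (log2 fold change -1.37, SE 0.36, adjusted p = 0.0481). The call was lost without control 2, control 3, transgenic 1 or transgenic 3 (adjusted p = 0.155, 0.158, 0.145 and 0.159, respectively), when blocked on sex (adjusted p = 0.0705) and with all probe sets tested (adjusted p = 0.0557). Itga6, the alpha chain that pairs with Itgb4 and also with Itgb1, was at 11.18, 11.28 and 11.42 against 11.47, 11.76 and 11.44. Its groups were apart by a small margin, and the difference of 0.26 did not pass (95% interval -0.025 to 0.55, adjusted p = 0.183). The other laminin-binding alpha chains, Itga3 and Itga7, were at -0.0016 (95% interval -0.62 to 0.62) and -0.10 (adjusted p = 0.998 and 0.549).

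Inside the cell, the linker genes Plec and Dst had higher means without passing. Plec, which encodes plectin, was at 8.89, 9.76 and 9.72 against 9.97, 9.84 and 9.87 (log2 fold change 0.44, SE 0.24, adjusted p = 0.268). Dst, which encodes the plakin BPAG1 of hemidesmosomes, was at 7.97, 8.81 and 8.84 against 9.05, 9.15 and 9.29 (log2 fold change 0.62, SE 0.25, adjusted p = 0.136). In both genes control replicate 1 was the lowest array, and without it the differences were 0.15 and 0.34 (adjusted p = 0.245 and 0.059). Cd151, a tetraspanin that binds laminin-receptor integrins, was at 10.33, 10.72 and 10.83 against 10.53, 10.59 and 10.79 (95% interval -0.36 to 0.38, adjusted p = 0.972). Col17a1, the transmembrane collagen of hemidesmosomes, was at 6.14, 6.26 and 6.07 against 6.14, 6.11 and 6.15 (95% interval -0.21 to 0.17, adjusted p = 0.878). Both sets of values overlapped between groups.

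In 2 other receptor chains the result turned on control replicate 1. Itgb5, another partner of the alphav chain, was at 7.22, 9.53 and 9.80 in controls and 7.30, 7.82 and 7.59 in arrays labelled transgenic. Control replicate 1 lay below every transgenic array and the other controls above them, and the difference did not pass (log2 fold change -1.28, SE 0.67, adjusted p = 0.25). Without control replicate 1 it was -2.10 (adjusted p = 0.00239). Itga5, the alpha chain of the classical fibronectin receptor, was at 7.06, 6.22 and 6.50 against 7.38, 6.84 and 6.93 (log2 fold change 0.45, SE 0.25, adjusted p = 0.269). Its groups overlapped through control replicate 1. It passed without that array (0.69, adjusted p = 0.0475), in the fit blocked on replicate number (adjusted p = 0.03) and with array weights. The other receptor chains outside the leukocyte group, Itga2b, Itga8, Itga9, Itga10, Itga11, Itgb3 and Itgb8, had log2 fold changes from -0.14 to 0.23, and none passed. Of the 6 values of Itga8 and Itgb8, 5 and 2 lay in the range of absent transcripts, taken from Xist in male and Y-linked genes in female mice, which reached 5.06.

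Of the integrin chains that lymphocytes carry, Itga1, Itgb2 and Itgb7 fell, and lymphocyte transcripts fell beside them. Itga1, a collagen receptor chain of stromal cells and of tissue-resident T cells, was at 8.07, 8.10 and 8.29 in controls and 6.94, 7.02 and 6.73 in arrays labelled transgenic. Its groups lay far apart, and it was 2.39-fold lower (log2 fold change -1.26, SE 0.11, adjusted p = 0.0028), a call that held with each array left out in turn. Itgb2, the beta chain of the leukocyte integrins, was at 6.60, 6.64 and 6.58 against 5.73, 6.11 and 6.07 (log2 fold change -0.64, SE 0.12, adjusted p = 0.0191). Its groups did not overlap, and its call was lost without control 2, control 3 or transgenic 3 (adjusted p = 0.0786, 0.0732 and 0.0589, respectively) and when blocked on sex (adjusted p = 0.0523). Itgb7, which pairs with Itgae to bind E-cadherin on epithelial cells, was at 6.64, 6.68 and 6.37 against 5.96, 6.27 and 6.03 (log2 fold change -0.48, SE 0.13, adjusted p = 0.0479). Its groups were close, and its call was lost without control 1, control 2, control 3, transgenic 1 or transgenic 3 (adjusted p = 0.0762, 0.156, 0.0664, 0.148 and 0.153, respectively), when blocked on sex (adjusted p = 0.0718) and with all probe sets tested (adjusted p = 0.0548). Itgae, outside the 44 genes, fell (log2 fold change -1.85, SE 0.20, adjusted p = 0.00502) and was lower on every transgenic array than on every control. Itga4, the other partner of Itgb7, was at 6.57, 6.40 and 6.37 against 6.20, 6.60 and 6.07. Those values overlapped, and Itga4 did not pass (log2 fold change -0.15, adjusted p = 0.55). Itgal, the alpha chain that pairs with Itgb2 on lymphocytes and lies outside the 44 genes, did not pass either (log2 fold change -0.22, adjusted p = 0.139).

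Of 9 markers of T cells and intraepithelial lymphocytes 8 fell (88.9%, while 9.65% of all genes fell), with a median log2 fold change of -1.54. The number of these markers that passed was 8, 1 and 2 without control 1, 2 or 3, and 5, 9 and 1 without transgenic 1, 2 or 3. The shares of all genes in those fits are given above. The 4 with the lowest p were Nkg7, a cytotoxic granule gene, at -2.53, the coreceptor gene Cd8a at -1.54, the T cell receptor complex gene Cd3g at -2.55 and the granzyme gene Gzmb at -2.93. Nkg7 passed with each array left out, Cd8a did not without control 2, control 3 or transgenic 3 (adjusted p = 0.0526, 0.0512 and 0.0604, respectively), Cd3g did not without control 2, control 3 or transgenic 3 (adjusted p = 0.0594, 0.0624 and 0.065, respectively), and Gzmb did not without control 2, control 3 or transgenic 3 (adjusted p = 0.0533, 0.0532 and 0.0632, respectively). The summed level of the 9 markers was 12.19 to 12.89 in controls and 9.81 to 11.05 in arrays labelled transgenic, and 0 of them lay in the range of absent transcripts on all arrays. The part of lymphocyte content in the values of Itga1, Itgb2 and Itgb7 was not tested.

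**Figure D3:**
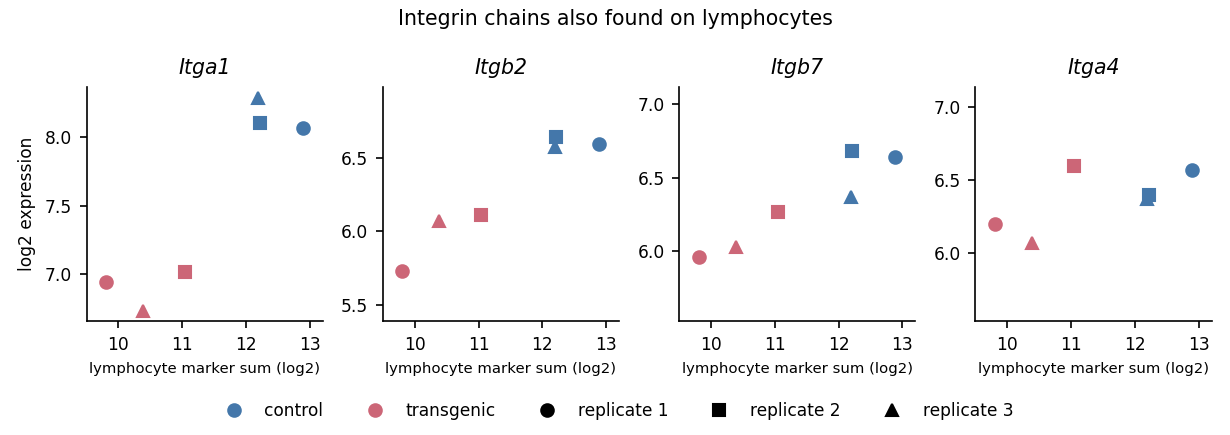
Log2 expression of Itga1, Itgb2, Itgb7 and Itga4 (y axis) on each array against the log2 of the summed level of 9 T cell and intraepithelial lymphocyte markers (x axis), with control in blue, transgenic in red and a symbol for the replicate number. The transgenic arrays, with marker sums of 9.81 to 11.05, hold the lower values of Itga1, Itgb2 and Itgb7, and the Itga4 values of the groups overlap.

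Among the ligands is laminin-511, the trimer of Lama5, Lamb1 and Lamc1 found under many epithelia. Of its 3 chains 2 rose, while 8.97% of all genes rose. Lama5 was at 6.73, 6.83 and 6.77 in controls and 7.75, 8.12 and 7.71 in arrays labelled transgenic. The controls lay close together below every transgenic array, and Lama5 was 2.12-fold higher (log2 fold change 1.08, SE 0.12, adjusted p = 0.00541), a call that held with each array left out. Lamc1, the gamma chain of most laminins, was at 7.45, 6.40 and 6.60 against 8.80, 7.97 and 8.53. Control replicate 1 was the highest control, and Lamc1 was 3.08-fold higher (log2 fold change 1.62, SE 0.33, adjusted p = 0.0243). Its call was lost without control 2, control 3, transgenic 1 or transgenic 3 (adjusted p = 0.0868, 0.0955, 0.0806 and 0.095, respectively). Lamb1, the beta chain of the trimer, was at 5.95, 5.87 and 6.15 against 6.58, 6.10 and 6.16. Its groups overlapped, and the difference of 0.29 did not pass (95% interval -0.079 to 0.66, adjusted p = 0.247).

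Lama3 and Lamb3, chains of a laminin that hemidesmosomes bind, had means that differed in opposite directions and did not pass over all 6 arrays. Lama3 was at 5.78, 7.69 and 8.10 against 5.71, 6.44 and 5.86 (log2 fold change -1.19, SE 0.61, adjusted p = 0.235). Control replicate 1 lay among the transgenic arrays, and without it the difference was -1.89 (adjusted p = 0.006). Lamb3 was at 6.85, 7.34 and 7.52 against 7.74, 8.31 and 7.94 (log2 fold change 0.76, SE 0.22, adjusted p = 0.0602). Its groups did not overlap, and it passed in the fit blocked on replicate number (adjusted p = 0.0186). Lamb3 also passed with array weights and with genes whose mean was under the median of all genes left out. Lamb2, a beta chain of vessel and muscle basement membranes, was at -0.23 (adjusted p = 0.131). Lama1, Lama2, Lama4 and Lamc3 had log2 fold changes from -0.12 to 0.058, and none passed. All 6 values of Lama2 and 4 of Lama4 lay in the range of absent transcripts.

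**Figure D4:**
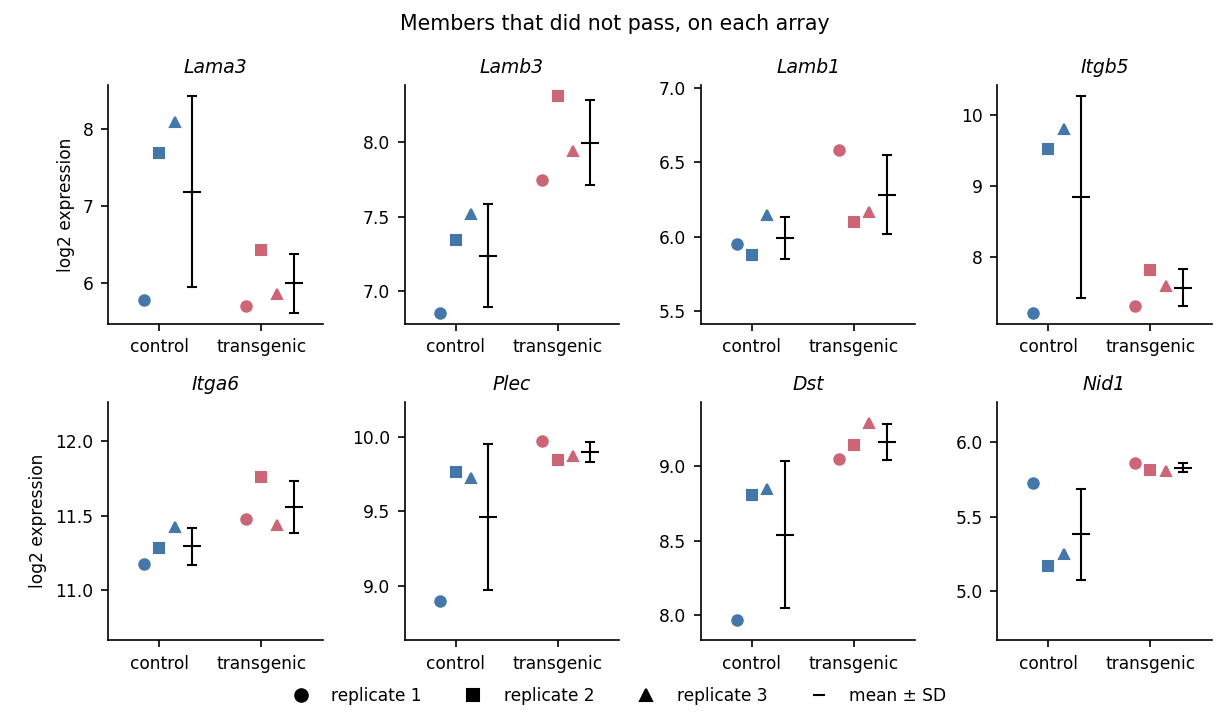
Log2 expression of 8 genes that did not pass (y axis, a scale of its own in each panel) on each control (blue) and transgenic (red) array, with a symbol for the replicate number and a black mark and bars for the group mean ± SD (n = 3). In Lama3 and Itgb5 control replicate 1, at 5.78 and 7.22, sits with the transgenic arrays, and in Plec and Dst it is the lowest array.

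None of the 6 collagen IV chains passed in limma, and 0 had an unadjusted p under 0.05. Col4a1, of the most widespread collagen IV trimer, was at 6.40, 6.09 and 6.16 against 6.41, 6.19 and 6.25 (95% interval -0.21 to 0.34, adjusted p = 0.746). Col4a2, the other chain of that trimer, was at 6.29, 6.42 and 6.36 against 6.25, 6.40 and 6.53 (95% interval -0.20 to 0.27, adjusted p = 0.838). Both genes overlapped between groups, and both intervals leave out a doubling. Col4a3, Col4a4, Col4a5 and Col4a6, the chains of more specialised membranes, were at 0.092, 0.13, 0.12 and 0.0024.

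Of the 4 genes for proteins that link the laminin and collagen layers, 3 fell (75%, while 9.65% of all genes fell). Agrn, which encodes the proteoglycan agrin, was at 9.26, 9.75 and 9.64 in controls and 7.36, 8.49 and 7.38 in arrays labelled transgenic. Transgenic replicate 2 lay between the controls and the other transgenic arrays, and Agrn was 3.49-fold lower (log2 fold change -1.80, SE 0.33, adjusted p = 0.0182). Its call was lost without control 2, control 3, transgenic 1 or transgenic 3 (adjusted p = 0.0754, 0.0771, 0.0612 and 0.0738, respectively). Hspg2, which encodes perlecan, was at 8.02, 7.83 and 7.90 against 6.97, 7.27 and 7.01 (log2 fold change -0.83, SE 0.11, adjusted p = 0.00746). Nid2, a nidogen, was at 7.00, 6.96 and 6.98 against 6.32, 6.44 and 6.29 (log2 fold change -0.63, SE 0.075, adjusted p = 0.006). In both genes the controls lay close together above every transgenic array, and the calls held with each array left out. Nid1, the other nidogen, had a higher mean, at 5.73, 5.17 and 5.25 against 5.86, 5.82 and 5.81 (log2 fold change 0.45, SE 0.16, adjusted p = 0.0992). It passed without control replicate 1 (0.62, adjusted p = 0.00556).

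**Figure D5:**
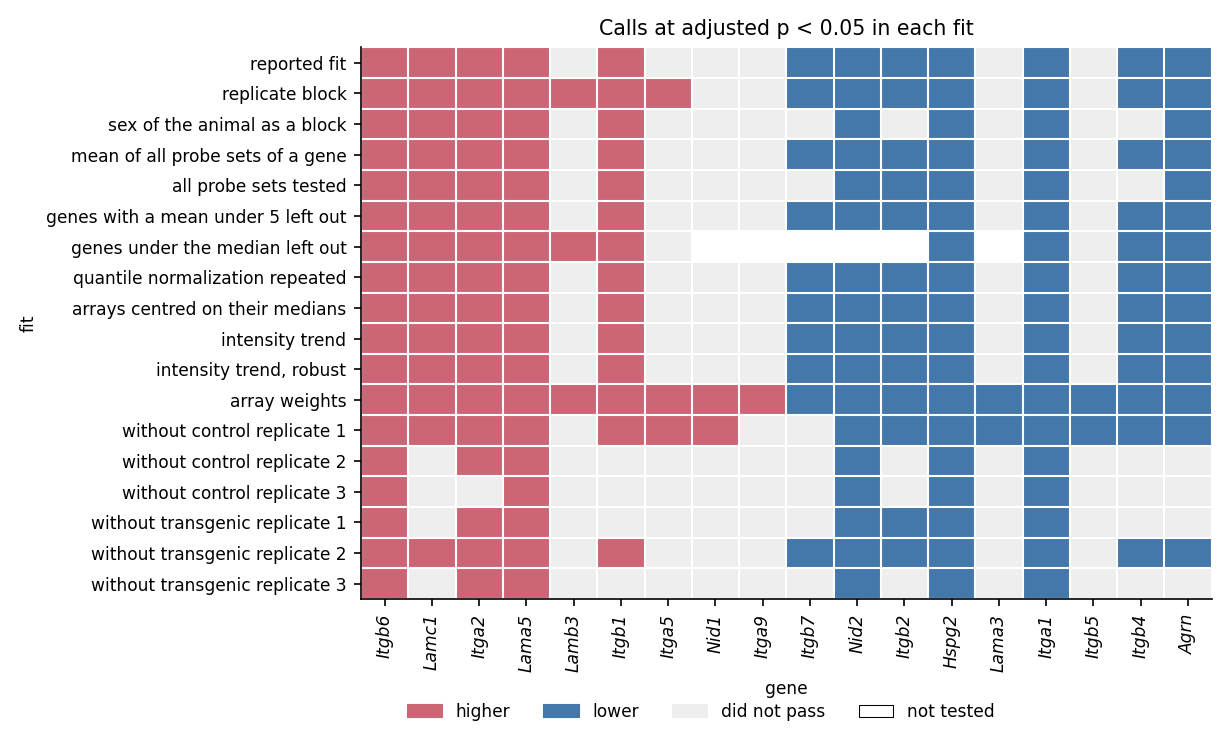
Calls at an adjusted p under 0.05 for the 18 genes that passed in at least 1 of 18 fits (red higher, blue lower, light grey did not pass, white not tested), with fits on one axis and genes on the other. Itgb6, Lama5, Itga1 and Hspg2 passed in all 18 fits and Nid2 in each fit that tested it, while Lama3, Itgb5 and Nid1 passed without control replicate 1 and with array weights.

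Markers of other cells that make or contact this matrix were read beside these genes. Of 10 fibroblast and pericyte markers Vim, an intermediate filament gene, fell by 0.89 on the log2 scale, a call lost without control 2, control 3, transgenic 1 or transgenic 3 (adjusted p = 0.0841, 0.0785, 0.0867 and 0.0892, respectively). Their summed level was 11.03 to 12.03 in controls and 10.42 to 11.16 in arrays labelled transgenic, and the defining markers Lum and Postn lay in the range of absent transcripts on all arrays. The means of 6 of the 10 were higher in arrays labelled transgenic, with a median log2 fold change of 0.018, so this lower sum does not describe the list. Of 8 smooth muscle markers Mylk, a myosin kinase gene, passed at -0.70 (adjusted p = 0.00341), with sums of 9.54 to 9.60 in controls and 9.31 to 9.37 in arrays labelled transgenic. The means of 6 of the 8 were higher in arrays labelled transgenic, with a median log2 fold change of 0.066, so the lower sum does not describe the list. Of 10 endothelial markers Tie1, a receptor kinase gene, passed at 1.30 (adjusted p = 0.00238), with sums of 8.76 to 8.81 in controls and 8.97 to 9.07 in arrays labelled transgenic. The means of 7 of the 10 were lower, with a median of -0.048, so the higher sum does not describe the list either, and Kdr, Tek and Emcn lay in the range of absent transcripts. Of 10 macrophage and dendritic cell markers Mrc1 rose by 1.03 and Cd14 by 1.07, the latter not without control 2 or transgenic 3 (adjusted p = 0.073 and 0.075, respectively), with sums of 11.58 to 11.96 in controls and 11.36 to 12.04 in arrays labelled transgenic. Of 9 neutrophil markers S100a9 rose by 1.14, and Ltf by 0.38 but not without control 2, control 3, transgenic 1, transgenic 2 or transgenic 3 (adjusted p = 0.109, 0.122, 0.0565, 0.0616 and 0.109, respectively), with sums of 8.37 to 8.41 in controls and 8.76 to 8.85 in arrays labelled transgenic. Cxcr2, the third neutrophil marker past the threshold (adjusted p = 0.0186), had 5 of its 6 values in the range of absent transcripts, so no size is given, and its call was lost without control 2, control 3 or transgenic 3 (adjusted p = 0.0734, 0.0674 and 0.062, respectively). None of 3 platelet markers passed, with sums of 6.66 to 6.75 in controls and 6.72 to 6.77 in arrays labelled transgenic. On all arrays 2 of these 3, 2 of the 10 macrophage and dendritic cell markers and 1 of the 9 neutrophil markers lay in the range of absent transcripts. Of the fibroblast, smooth muscle, endothelial, macrophage and neutrophil markers 10%, 12.5%, 10%, 20% and 33.3% passed, respectively, beside 18.6% of all genes. The part of these cells in the matrix and integrin values was not tested.

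Genes that act with integrins inside the cell changed in both directions. Of 29 adaptor and focal adhesion genes 5 rose and 5 fell (34.5%, beside 18.6% of all genes), with a median log2 fold change of -0.07. The number that passed was 12, 4 and 4 without control 1, 2 or 3, and 6, 10 and 5 without transgenic 1, 2 or 3. Here and for the lists below, the shares of all genes were 27.8%, 4.90% and 4.78%, and 6.87%, 20.5% and 5.39%, in that order. The 4 with the lowest p were the actin crosslinker Actn1 at 1.87, the adhesion protein gene Vcl at 0.58, the kindlin gene Fermt1 at -1.15 and the talin gene Tln2 at 1.22, and all 4 passed with each array left out. Of 6 integrin alpha chains named by letters, Itgav rose and Itgae fell, as given above (33.3%, beside 18.6% of all genes). Of 18 tetraspanins, membrane proteins that organise integrins and other partners, 3 rose and 4 fell (38.9%, beside 18.6% of all genes). The number of tetraspanins that passed was 9, 2 and 2 without control 1, 2 or 3, and 2, 7 and 2 without transgenic 1, 2 or 3. Tspan4 and Cd81, at 1.30 and -0.83, passed in each of those fits. Tspan15, at -1.18, did not pass without control 2, control 3, transgenic 1 or transgenic 3 (adjusted p = 0.0863, 0.0845, 0.077 and 0.0819, respectively), and Tspan3, at -1.23, did not pass without control 2, control 3, transgenic 1 or transgenic 3 (adjusted p = 0.124, 0.123, 0.0913 and 0.125, respectively).

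Of 13 other matrix receptors 1 rose and 2 fell (23.1%, beside 18.6% of all genes). Dag1, the laminin and agrin receptor dystroglycan, was at 10.62, 10.72 and 10.75 in controls and 9.34, 9.75 and 9.45 in arrays labelled transgenic (log2 fold change -1.19, SE 0.12, adjusted p = 0.00436). It was lower on every transgenic array and passed with each array left out. Cd44, a hyaluronan receptor, rose by 1.82 on the log2 scale, a call lost without control 2, control 3, transgenic 1 or transgenic 3 (adjusted p = 0.0878, 0.0958, 0.081 and 0.0959, respectively). Gpc4, a glypican, was at -0.76, a call lost without control 2, control 3, transgenic 1 or transgenic 3 (adjusted p = 0.109, 0.104, 0.1 and 0.109, respectively).

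Of 25 other matrix proteins 1 rose and 0 fell, a share of 4% beside 18.6% of all genes. That gene was Thbs1, which encodes the adhesive glycoprotein thrombospondin 1 (log2 fold change 2.67, SE 0.47, adjusted p = 0.017), and its call was lost without control 2, control 3, transgenic 1 or transgenic 3 (adjusted p = 0.072, 0.0744, 0.0557 and 0.0733, respectively). Of 25 matrix proteases and inhibitors 3 rose and 2 fell (20%, beside 18.6% of all genes). The proteases with the lowest p were Adamts4 at 1.13, Adam15 at -0.65, Adamts1 at 2.35 and Adam8 at 0.89. Adam8 did not pass without control 2 or control 3 (adjusted p = 0.0583 and 0.0563, respectively), and 1 of the 6 values of Adamts1 lay in the range of absent transcripts. The number of these genes that passed was 8, 3 and 3 without control 1, 2 or 3, and 4, 5 and 5 without transgenic 1, 2 or 3. Of 20 collagen and matrix assembly enzymes 2 rose and 1 fell (15%, beside 18.6% of all genes). They were the collagen glycosyltransferase Colgalt1 at -0.67, the lysyl hydroxylase Plod3 at 0.76, a call lost without transgenic 3 (adjusted p = 0.0526), and the prolyl hydroxylase P3h1 (adjusted p = 0.0325). All 3 control values of P3h1 lay in the range of absent transcripts, so no size is given, and its call was lost without control 2, control 3, transgenic 1, transgenic 2 or transgenic 3 (adjusted p = 0.108, 0.0781, 0.0652, 0.0689 and 0.114, respectively).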

How the data were processed

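The 6 arrays measured total RNA of jejunal epithelial preparations, 3 per group. The deposited values are log2 expression levels of 28350 probe sets made by the authors, and the submitters' processing notes name Partek and RMA. A genome build was not given in the sources used here. Of the probe sets, 21780 named 1 gene, 1618 several and 4952 none; symbols of 21689 were updated through the RefSeq table of GRCm38.p6. Each gene was read from its single-gene probe set with the highest mean, giving 19933 genes.

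Groups came from the labels. Groups were compared by linear models in limma 3.58.1 under R 4.3.3, two-sided and with moderated variances. P-values were adjusted by Benjamini and Hochberg's method across the 19933 genes, and 0.05 was the threshold. The procedure was tested on simulated data. Confidence intervals are moderated, at 95%. The genes and lists were chosen with earlier results of these data known. Genes named are those past the threshold, Lama3, Lamb3, the chains of laminin-511, Col4a1, Col4a2, Nid1, Hspg2, the hemidesmosome genes and Itgb1, and from each other list up to 4 genes past the threshold with the lowest p; the other genes of the set are given by name and range.

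Titles number the replicates alike in both groups. Deviations from the group means correlated between same-numbered arrays at 0.52, 0.41 and 0.13, each over 0.1, so the number was also fitted as a block. Differently numbered arrays correlated at -0.44 to 0.32, and control 3 correlated more with transgenic 2 (0.32) than with transgenic 3. Other alternatives were sex as a block, other probe set rules, filters on low means, other scalings, variance models, array weights, thresholds and each array left out. Sex was read from Xist and 3 Y-linked genes.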

Additional observations from a re-analysis of the deposited data

How the results depend on the processing

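Of the count of 12 genes past the threshold, an adjusted p of 0.01 kept 5 (2 higher, 3 lower), beside 4.02% of all genes, and array weights gave 18, with 9 higher and 9 lower, beside 35.5%. Sex as a block left 4 lower, beside 10.8% of all genes. Leaving out genes with a mean under the median of all genes tested 18 of the 44, without Itgb2, Itgb7 and Nid2. Of those 18, 10 passed (6 higher, 4 lower), beside 35.2% of the genes tested, and Lamb3 was gained. The replicate block gave 14 and kept all 12; it added Itga5 and Lamb3 and changed no other call. With each array left out in turn the count ran from 5 to 15, with 2 to 7 higher and 3 to 8 lower, beside 4.78% to 27.8% of all genes. Means near 0 changed sign. Cd151, at 0.011, was -0.0095 after repeated quantile normalization, -0.0044 after median centring, -0.075 with array weights, and -0.14 to 0.11 with an array left out. With an array left out Col17a1, at -0.024, ran from -0.066 to 0.028, and Col4a2, at 0.037, from -0.031 to 0.11. The cause was not tested. Genes in the range of absent transcripts have no order.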
